A study of Mus musculus with 6 samples.

Results

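The 7 genes described here encode alternative parts of the proteasome: the immunoproteasome catalytic subunits Psmb8, Psmb9 and Psmb10, and the activator subunits Psme1, Psme2, Psme3 and Psme4. They were chosen by name, as the probes whose symbol in the array annotation is one of these, and are 7 of the 21946 genes with a named probe on the array and 7 of the 13524 genes tested. Together they had 11 probes, and all 11 were above the detection limit on every array, so that no member was lost to the filter on dim probes. CD8+ T cells were isolated by kit from spleens of C57BL/6 mice aged 6 weeks. They were pre-treated with 0.5 µM epoxomicin, a covalent inhibitor of the proteasome, with E9 at 1.0 µM, known only by this code and given in the labels as a proteasome activator, or with DMSO, the vehicle. All 3 groups were then activated for 3 days on antibodies to CD3 and CD28, coated at 5 µg/ml, in medium with IL-2. Each group had 2 Illumina bead arrays of total RNA. The design text calls these biological duplicates of CD8+CD44+ cells, while the isolation in the labels names CD8 alone, and the labels do not tie the arrays to animals or days. The arrays measured transcripts, not proteasome protein or activity.

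Proteasomes cut proteins in a barrel-shaped core whose inner rings carry 3 kinds of catalytic subunit. In lymphocytes and in cells exposed to interferon gamma, LMP7 (Psmb8), LMP2 (Psmb9) and MECL-1 (Psmb10) take the places of the constitutive subunits encoded by Psmb5, Psmb6 and Psmb7 in newly built cores, and the resulting immunoproteasome yields peptides well suited to MHC class I molecules. PA28 alpha (Psme1) and PA28 beta (Psme2), also induced by interferon gamma, form a cap that opens the core without ubiquitin or ATP. PA28 gamma (Psme3) forms a nuclear cap of its own kind, and PA200 (Psme4) is a large single-chain activator found in the nucleus.

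The sequences before the starts of 4 members are shown because transcripts of these 4 were higher with E9 than with DMSO (below). They come from RefSeq (GRCm38.p6), run 5′ to 3′ on the strand of the gene and cover the 250 bases before its start, at chr17:34197945-34198194 (plus strand) for Psmb8, chr17:34187331-34187580 (minus strand) for Psmb9, chr8:105938393-105938642 (minus strand) for Psmb10 and chr14:55578244-55578493 (plus strand) for Psme1. Capitals mark matches to the motifs named after them.
Psmb8: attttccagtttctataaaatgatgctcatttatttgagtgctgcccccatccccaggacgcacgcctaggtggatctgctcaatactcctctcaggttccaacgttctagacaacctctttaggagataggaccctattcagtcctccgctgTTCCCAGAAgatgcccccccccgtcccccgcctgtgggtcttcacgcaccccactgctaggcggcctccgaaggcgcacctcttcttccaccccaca
Psmb9: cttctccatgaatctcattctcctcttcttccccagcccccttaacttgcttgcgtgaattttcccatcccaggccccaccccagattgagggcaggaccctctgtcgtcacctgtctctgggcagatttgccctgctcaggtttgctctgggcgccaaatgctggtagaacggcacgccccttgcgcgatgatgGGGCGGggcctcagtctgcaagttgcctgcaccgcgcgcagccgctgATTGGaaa
Psmb10: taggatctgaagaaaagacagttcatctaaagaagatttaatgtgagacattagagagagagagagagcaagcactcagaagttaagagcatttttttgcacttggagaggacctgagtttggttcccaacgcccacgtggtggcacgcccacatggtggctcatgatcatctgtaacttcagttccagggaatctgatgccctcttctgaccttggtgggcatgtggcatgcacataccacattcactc
Psme1: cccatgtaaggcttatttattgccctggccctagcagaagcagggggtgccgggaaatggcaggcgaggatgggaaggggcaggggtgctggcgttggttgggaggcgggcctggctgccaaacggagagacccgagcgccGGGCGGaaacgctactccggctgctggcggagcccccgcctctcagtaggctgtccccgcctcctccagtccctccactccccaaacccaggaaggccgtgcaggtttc
Psme1, chr14:55578496-55578520, just after the start: gctgtgctTTCGCTTTCccttcccg

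Windows of 300 bases, 250 before and 50 after the start, were found for all 7 members, 8 windows in all, since Psme2 had 2. They were searched on both strands for 6 motifs, and 32851 windows of all genes gave the background. The core of the gamma-activated site, TTCNNNGAA, is in the Psmb8 window, 97 bases before the start, and in 8.3% of all windows. Being its own reverse complement, it counts once. The core of the interferon-stimulated response element, GAAANNGAA, is in the Psme1 window on the minus strand, from base 11 after the start, and in 8.56% of all windows. The SP1 box, GGGCGG, is in the windows of Psmb9, Psme1, Psme2 and Psme4 and in 35.7% of all, and CCAAT is in those of Psmb9 and Psme3 and in 37.4% of all. The antioxidant response element core, TGACNNNGC, is in the Psme4 window (12.4% of all), and the kB site GGANTTTCC is in none of the members' windows (1.25% of all). The Psmb10 window held none of the 6, which says only that these letters are not there. No 2 of the capital runs overlap. Psmb9 and Tap1, a subunit of the peptide transporter, start 225 bases apart on chromosome 17 and are transcribed away from each other, so the Psmb9 sequence shown spans the whole gap. Psmb8 lies on the same chromosome, with 10864 bases between its start and that of Psmb9. On chromosome 14, 12606 bases separate the start of Psme1 from the Psme2 start in the first of its 2 windows.

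The deposited intensities are linear, are taken as quantile-normalized by the authors, and still contain background, for which a detection limit of 34.5 was estimated. Intensities of the probe with the highest mean per gene are given below. Fold changes are on the log2 scale after background correction with an added offset, which shrinks changes of dim genes, and come with the standard error of 1 limma model of all 6 arrays. A gene rose or fell if its Benjamini-Hochberg adjusted p over the 13524 genes was under 0.05. Across genes, arrays of the same group correlated with r of 0.998 for epoxomicin, 0.996 for E9 and 0.997 for DMSO. Among markers of CD8+ T cells, all 10 with a probe were above the limit on all arrays, Cd8b1, Cd3d and Thy1 among them. The Cd8a probe lay close to the limit, at 36.5 to 48.5 over the 6 arrays. The summed intensity of these 10 markers was 23325 to 23449 with epoxomicin, 28658 to 29732 with E9 and 20147 to 20338 with DMSO, and 7 of the 10 rose with E9 and 1 with epoxomicin. In bulk RNA of this kind, fewer cells of a type and less RNA per cell cannot be told apart.

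The catalytic subunits come first. Psmb8, which encodes LMP7, the chymotrypsin-like subunit that replaces Psmb5, had intensities of 2336 and 2240 with epoxomicin, 3270 and 3465 with E9, and 2653 and 2493 with DMSO. Both E9 arrays were above all others and both epoxomicin arrays below all others. Psmb9, which encodes LMP2 and replaces Psmb6, had 1450 and 1359 with epoxomicin, 1957 and 2088 with E9, and 1674 and 1546 with DMSO, in the same order and again with no overlap. Psmb10, which encodes MECL-1 and replaces Psmb7, had 736.5 and 730.5 with epoxomicin, 1614 and 1308 with E9, and 717.4 and 701.2 with DMSO. For Psmb10 the epoxomicin arrays lay just above the DMSO arrays, and both E9 arrays stood far above the other 4.

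Among the activators, Psme1, the PA28 alpha subunit, had 4679 and 5398 with epoxomicin, 5706 and 5728 with E9, and 4232 and 4787 with DMSO. The E9 arrays were the highest, and the epoxomicin and DMSO arrays overlapped. Psme2, the PA28 beta subunit, had 246.4 and 253.3 with epoxomicin, 288.1 and 260.3 with E9, and 223.4 and 267.3 with DMSO, so that E9 overlapped with DMSO but not with epoxomicin. Psme3, the PA28 gamma subunit, had 1844 and 1909 with epoxomicin, 1427 and 1781 with E9, and 1755 and 1572 with DMSO. The Psme3 intensities on the E9 arrays differed more from each other than the group means did. Psme4, the PA200 activator, had 700.6 and 652.8 with epoxomicin, 556 and 581.8 with E9, and 643.7 and 688.2 with DMSO, and its E9 arrays were the lowest of the 6. Intensities of different genes rest on different probes and were not compared.

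**Figure D1:**
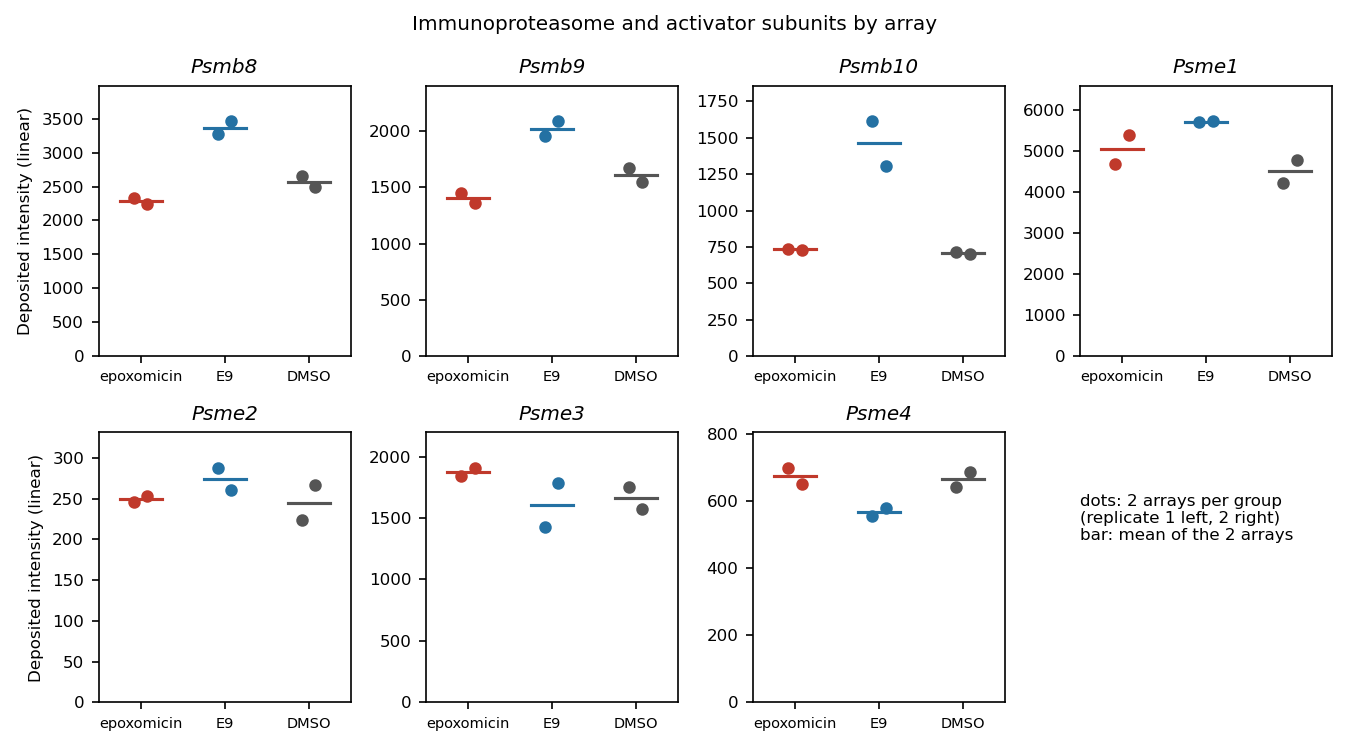
Deposited linear intensity (y axis, from 0) of the 7 members on each array, with groups along the x axis. Dots are the 2 arrays of a group and the bar is their mean. Psmb8, Psmb9, Psmb10 and Psme1 are highest on both E9 arrays, and Psme4 is lowest there.

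The comparison of E9 with DMSO asks what the compound given as an activator left in these transcripts after 3 days of activation. Of the 7 members, 4 rose, 0 fell and 3 did not pass, while 15.1% of all genes changed, 7.52% rose and 7.61% fell. At an unadjusted p under 0.05 there were 5 of 7, beside 26.5% of all genes. Both E9 arrays lay above both DMSO arrays for 4 members (24.7% of all genes) and below them for 1, Psme4 (26.7%), and groups did not overlap for 51.4% of all genes. The 4 were the catalytic subunits Psmb8, Psmb9 and Psmb10 and the activator subunit Psme1. The median log2 fold change of the 7 was 0.32, beside -0.0058 for all genes. Psmb10 averaged 1461 ± 217 with E9 and 709.3 ± 11.5 with DMSO (SD, n = 2 each), a log2 fold change of 1.01 ± 0.092 (SE) with a limma adjusted p of 7.56e-05, and its value ranked as number 100 from the top among the 13524 genes. Psmb8 averaged 3367 ± 138 with E9 and 2573 ± 113 with DMSO (SD, n = 2 each), a log2 fold change of 0.38 ± 0.068 (SE) with a limma adjusted p of 0.00429. Thus Psmb10 rose by a factor of 2.06 in mean intensity and Psmb8 by 1.31.

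Psmb9 averaged 2023 ± 93.1 with E9 and 1610 ± 90.9 with DMSO (SD, n = 2 each), a log2 fold change of 0.32 ± 0.073 (SE) with a limma adjusted p of 0.0145. It lost its call without E9 replicate 2 (0.28, limma adjusted p = 0.0689) and without DMSO replicate 2 (0.27, limma adjusted p = 0.12). Psme1 averaged 5717 ± 15.5 with E9 and 4509 ± 392.4 with DMSO (SD, n = 2 each), a log2 fold change of 0.34 ± 0.087 (SE) with a limma adjusted p of 0.0264. It lost its call without E9 replicate 1 (0.35, limma adjusted p = 0.0711), without E9 replicate 2 (0.34, limma adjusted p = 0.0729) and without DMSO replicate 1 (0.25, limma adjusted p = 0.183). With a smaller offset of 16 in the background correction, Psmb9 (0.33, limma adjusted p = 0.0641) and Psme1 (0.35, limma adjusted p = 0.0704) did not pass. The calls of Psmb10 and Psmb8 held in each fit with 1 array left out.

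The other activators did not pass with E9. Psme2, the partner of Psme1 in the PA28 ring, had a log2 fold change of 0.15 with a 95% confidence interval from -0.048 to 0.35 (limma adjusted p = 0.338), which includes the value of Psme1. Psme3 had -0.058 (interval from -0.29 to 0.17, limma adjusted p = 0.801), and Psme4 had -0.22 (interval from -0.37 to -0.061, limma adjusted p = 0.0687). A further gene, Psme2b, carries PA28 beta synonyms in RefSeq and may share sequence with Psme2, so signal on either probe is uncertain as to its source. Psme2b had 1243 and 1116 with epoxomicin, 1264 and 1463 with E9, and 1257 and 1365 with DMSO, and it passed in no comparison, its log2 fold change with E9 being 0.053 (limma adjusted p = 0.793).

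The comparison of epoxomicin with DMSO asks the same of the inhibitor. None of the 7 members passed (0 rose and 0 fell), beside 1.26% of all genes changed, 0.71% higher and 0.547% lower. Groups did not overlap for 4 of 7 members and 41.5% of all genes, with epoxomicin lower for Psmb8 and Psmb9 (20.3% of all) and higher for Psmb10 and Psme3 (21.2% of all). At an unadjusted p under 0.05 there were 2 of 7, Psmb8 and Psmb9, beside 11.2% of all genes. Psmb8 averaged 2288 ± 67.7 with epoxomicin and 2573 ± 113 with DMSO (SD, n = 2 each), a log2 fold change of -0.17 ± 0.068 (SE), interval from -0.32 to -0.013. Psmb9 averaged 1405 ± 64.8 with epoxomicin and 1610 ± 90.9 with DMSO (SD, n = 2 each), a log2 fold change of -0.19 ± 0.073 (SE), interval from -0.36 to -0.030. Their limma adjusted p values were 0.395 for Psmb8 and 0.344 for Psmb9. Psmb10 had 0.047 (interval from -0.16 to 0.25), Psme1 0.16 (interval from -0.038 to 0.35), Psme2 0.028 (interval from -0.17 to 0.23), Psme3 0.17 (interval from -0.057 to 0.40) and Psme4 0.022 (interval from -0.13 to 0.18). A missed threshold does not show that the levels were equal.

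Setting the treatments against each other tests directly whether they left different levels. Of the 7 members, 3 were lower with epoxomicin than with E9, 0 were higher and 4 did not pass, beside 12.6% of all genes changed, 6.62% lower and 6% higher. At an unadjusted p under 0.05 there were 5 of 7, beside 23.3% of all genes. Arrays of the groups did not overlap for 7 of 7 members and 50.1% of all genes, with epoxomicin lower for 5 members (23% of all) and higher for 2, Psme3 and Psme4 (27% of all). The 3 were the catalytic subunits. Psmb10 had a log2 fold change of -0.96 ± 0.092 (SE, limma adjusted p = 0.000102), Psmb8 -0.55 ± 0.068 (SE, limma adjusted p = 0.000562) and Psmb9 -0.52 ± 0.073 (SE, limma adjusted p = 0.00122), with 2 arrays in each group and no overlap. All 3 held in each fit with 1 array left out. For Psme1 the value was -0.18 (interval from -0.38 to 0.011, limma adjusted p = 0.248), and for Psme2 -0.12 (interval from -0.32 to 0.076). The nuclear activators had values of the other sign, 0.23 for Psme3 (limma adjusted p = 0.211) and 0.24 for Psme4 (limma adjusted p = 0.0543). Psme3 passed without E9 replicate 2 (0.39, limma adjusted p = 0.0218). The comparisons share arrays, so their values for a member are not independent of each other.

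**Figure D2:**
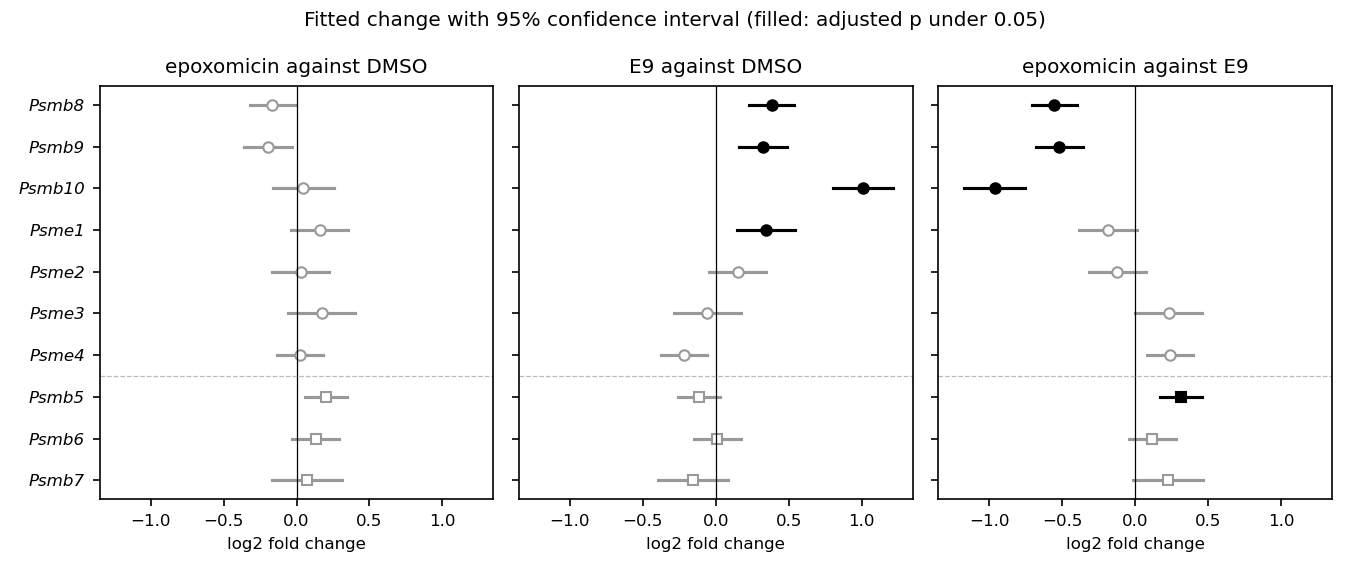
Log2 fold change (x axis) of the 7 members (circles) and the 3 constitutive counterparts (squares) in each comparison. Lines are 95% confidence intervals and filled symbols have an adjusted p under 0.05. The catalytic subunits Psmb8, Psmb9 and Psmb10 are filled in the comparison of E9 with DMSO and in that of epoxomicin with E9, and no gene is filled in that of epoxomicin with DMSO.

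Different probes of a member bear on whether its change depends on the stretch of transcript measured. Psmb8, Psmb10, Psme1 and Psme4 had 2 probes each, and a fit of the 20349 named probes gave each its own value. With E9 against DMSO, 7 of the 11 member probes rose, beside 13.4% of all probes changed and 6.63% higher. With epoxomicin against DMSO 0 of 11 passed, beside 0.988% of all probes changed and 0.555% higher. With epoxomicin against E9, 6 of 11 were lower and 0 higher. Of all probes 10.9% changed, 5.1% being higher and the rest of the 10.9% lower. The further probe of Psmb8 had 208.2 and 201 with epoxomicin, 317.7 and 290.8 with E9, and 198.2 and 221.9 with DMSO, and rose with E9 by 0.49 (log2, limma adjusted p = 0.00206). On that probe epoxomicin and DMSO overlapped, with a log2 fold change of -0.032. The further probe of Psmb10 had 639.5 and 745.9 with epoxomicin, 1355 and 1333 with E9, and 611.2 and 686.6 with DMSO, and rose by 1.02 (limma adjusted p = 4.62e-05). Its E9 arrays were close together, unlike those of the probe given above.

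The further probe of Psme1 had 2264 and 2005 with epoxomicin, 2639 and 2708 with E9, and 1926 and 1907 with DMSO. It rose with E9 against DMSO by 0.47 (limma adjusted p = 0.00203), and on this probe epoxomicin was below E9 (-0.32, limma adjusted p = 0.0191), a difference that the brighter probe did not pass. The dimmer Psme4 probe, at 47.2 and 51.4 with epoxomicin, 39.6 and 39.2 with E9, and 46.4 and 42.2 with DMSO, was close to the detection limit and passed in no comparison, although its E9 arrays were again the lowest. With the mean of a gene's probes in place of the brightest, Psme1 (-0.25, limma adjusted p = 0.0179) and Psme4 (0.22, limma adjusted p = 0.0243) also differed between epoxomicin and E9, making 5 of 7 members.

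**Figure D3:**
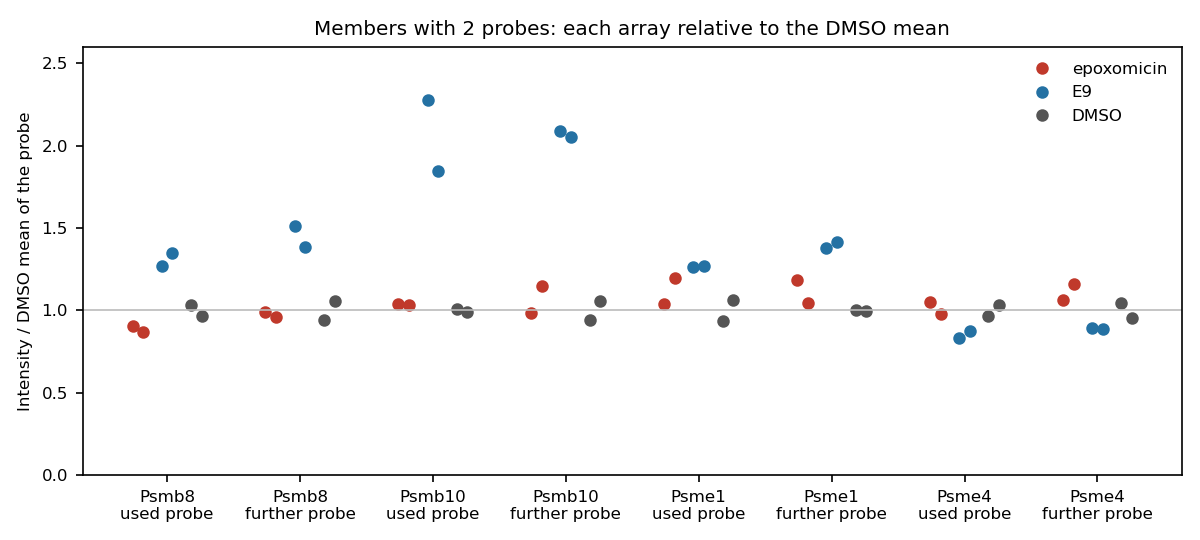
Intensity of each array divided by the DMSO mean of its probe (y axis, linear) for the 4 members with 2 probes, the probe used for the gene first. Dots are arrays, coloured by group. Both probes of Psmb8, Psmb10 and Psme1 are highest on the E9 arrays, and both probes of Psme4 are lowest there.

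The constitutive catalytic subunits that the inducible ones replace did not move with them. Psmb5 had 1082 and 1054 with epoxomicin, 831.2 and 875.1 with E9, and 909.1 and 940.6 with DMSO. Its epoxomicin arrays were the highest and its E9 arrays the lowest, the reverse of Psmb8. Psmb5 was higher with epoxomicin than with E9 (log2 fold change 0.32 ± 0.064 (SE), limma adjusted p = 0.0108), and against DMSO it passed neither with epoxomicin (0.20, limma adjusted p = 0.236) nor with E9 (-0.11, limma adjusted p = 0.321). This call was lost without epoxomicin replicate 1 (0.30, limma adjusted p = 0.0926), without epoxomicin replicate 2 (0.33, limma adjusted p = 0.0624) and without E9 replicate 1 (0.28, limma adjusted p = 0.0538), and with the offset of 16 (0.33, limma adjusted p = 0.0677). Psmb6 (0.13 with epoxomicin and 0.011 with E9, against DMSO) and Psmb7 (0.069 with epoxomicin and -0.16 with E9, against DMSO) passed in no comparison. Psmb7 had 4 probes, and its values here are those of the brightest, on which all groups overlapped. On each further probe both E9 arrays lay below all others. The further probes had log2 fold changes of -0.21, -0.18 and -0.13 with E9 against DMSO and passed in no comparison. Psmb7 passed between epoxomicin and E9 without E9 replicate 2 (0.39, limma adjusted p = 0.0279).

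Dividing each inducible subunit by its counterpart on the same array, with the DMSO mean set to 1, shows the unequal change within arrays. The ratio of Psmb8 to Psmb5 was 0.776 and 0.763 with epoxomicin, 1.41 and 1.42 with E9, and 1.05 and 0.952 with DMSO. The ratio of Psmb9 to Psmb6 was 0.793 and 0.800 with epoxomicin, 1.23 and 1.26 with E9, and 1.001 and 0.999 with DMSO. For both pairs the epoxomicin arrays were lowest, the E9 arrays highest, and no groups overlapped. The ratio of Psmb10 to Psmb7 was 1.03 and 0.938 with epoxomicin, 2.84 and 1.83 with E9, and 1.06 and 0.937 with DMSO, with E9 apart and the other groups overlapping. The spread of its E9 arrays depends in part on the Psmb7 probe used, at 2925 and 3671 with E9. The further Psmb7 probes had 2104 and 2081, 1909 and 2070, and 870 and 802.9 with E9. With 2 arrays a group these ratios carry no test of their own, and a ratio of transcripts does not measure which subunits the assembled proteasomes held.

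**Figure D4:**
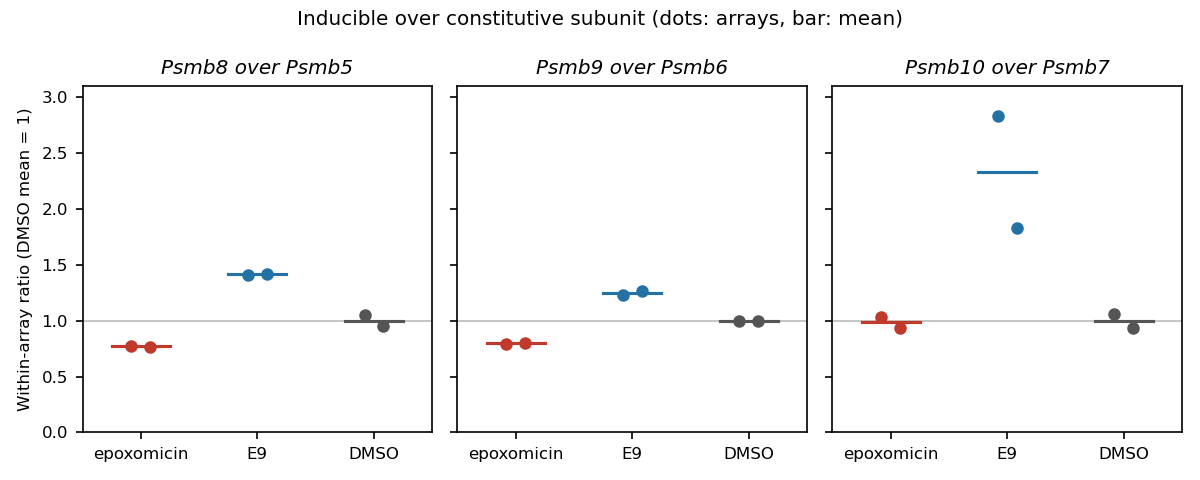
Within-array ratio of inducible to constitutive subunit intensity (y axis, linear, DMSO mean set to 1) for the 3 exchange pairs. Dots are arrays and bars are group means. The ratio of Psmb8 to Psmb5 lies at 0.763 to 0.776 with epoxomicin and at 1.41 to 1.42 with E9.

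In the rest of the proteasome no listed gene passed against DMSO, beside 1.26% of all genes with epoxomicin and 15.1% with E9. Small changes could be missed. Of simulated log2 shifts of 0.25, 10% were recovered for epoxomicin and 6% for E9 against DMSO. The simulation left 13324 of 13524 genes unshifted, so its adjustment was stricter than that of the real E9 fit. The 6% may therefore understate recovery for E9. In the list of the constitutive core, 0 of the 11 measured genes passed with epoxomicin and 0 with E9 against DMSO, with medians of 0.050 and 0.011. Of 17 measured genes of the 19S regulator, the cap that recognises ubiquitin-tagged proteins, 0 passed in either, with medians of -0.037 for epoxomicin and -0.026 for E9. Values of the 17 with E9 ran from -0.28 to 0.28. Psmd1, a scaffold subunit of that cap, had -0.23 with epoxomicin (limma adjusted p = 0.16), and Psmd11 had -0.28 with E9 (limma adjusted p = 0.0541). Of 12 measured assembly factors and other regulators 0 passed against DMSO, with medians of 0.025 for epoxomicin and -0.062 for E9. Under other processing settings, up to 1 of these 12 was called lower with E9. With 1 array left out, the 0 for the 19S regulator and for these 12 with E9 did not hold in every fit. Between epoxomicin and E9, Psmb5 alone of the core was called, with no gene of the 19S regulator and with 2 of the 12 assembly factors and regulators, the assembly chaperone gene Psmg1 (0.29, limma adjusted p = 0.0187) and the deubiquitinase gene Uchl5 (0.33, limma adjusted p = 0.0295), both higher with epoxomicin. The 2 became 1 with the replicate block, 1 without background correction and 1 with trend and robust settings, and neither passed with the offset of 16 or without epoxomicin replicate 1, epoxomicin replicate 2 or E9 replicate 1.

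Genes that work beside the immunoproteasome in antigen presentation did move with E9. Of 11 measured genes of peptide loading and MHC class I, 7 rose with E9 against DMSO and 0 fell (7.52% and 7.61% of all genes). The median was 0.28. With epoxomicin 0 passed (1.26% of all genes), with a median of 0.022. Requiring a log2 fold change of at least 0.5 as well left 1 of the 7. All the lists were chosen with earlier results of these data known. Nlrc5, the transactivator of MHC class I genes, rose by 0.52 (limma adjusted p = 0.000428), with 283.2 and 282 with epoxomicin, 442.9 and 426.1 with E9, and 292.6 and 299.6 with DMSO. Next were the class I heavy chain genes H2-D1 (0.42) and H2-K1 (0.39), Tapbpl (0.39), which edits the peptides bound to class I, Pdia3 (0.34) and Tapbp (0.28), both of the loading complex, with limma adjusted p from 0.00309 to 0.044. The count of 7 was 4 with the replicate number as a block, 4 without DMSO replicate 1, 2 without DMSO replicate 2, and 5 or 6 without 1 of the other arrays.

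Tap1, the neighbour that shares its upstream region with Psmb9, had 153.4 and 141 with epoxomicin, 214.5 and 193.8 with E9, and 178.5 and 165.3 with DMSO. The order of the groups was that of Psmb9, an order that Nlrc5 and Tapbpl of the same list also showed with no overlap. Tap1 had a log2 fold change of 0.22 with E9 against DMSO (limma adjusted p = 0.09) and -0.19 with epoxomicin against DMSO (limma adjusted p = 0.36). It was lower with epoxomicin than with E9 (-0.41, limma adjusted p = 0.00619). Tap2, the other chain of the transporter, passed in no comparison.

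Interferon gamma is the known inducer of the immunoproteasome, and the genes of its pathway went several ways. Ifng itself, named here after its values were known, had 6587 and 6693 with epoxomicin, 948 and 677.1 with E9, and 4777 and 4697 with DMSO. With E9 it fell by 2.53 on the log2 scale (limma adjusted p = 1.76e-06), and its value with epoxomicin was 0.49 (limma adjusted p = 0.13). The further Ifng probe had 7754 and 7548 with epoxomicin, 882.2 and 574.9 with E9, and 4502 and 4643 with DMSO. Its log2 fold changes against DMSO were -2.64 with E9 (limma adjusted p = 4.12e-06) and 0.74 with epoxomicin (limma adjusted p = 0.0633). The E9 arrays had the highest Psmb8, Psmb9 and Psmb10 and the lowest Ifng. A link between these transcripts was not tested. Of 11 measured transducers of interferon signals, 6 rose and 1 fell with E9 against DMSO (7.52% and 7.61% of all genes). The median of the 11 was 0.27. With epoxomicin 0 passed (1.26% of all genes), with a median of -0.077. Of the 6, Irf7 was above the detection limit on the E9 arrays alone (44.6 and 41.9) and so was tested only through the group where it was high, and 5 rose among genes above the limit on all 6 arrays. The 6 became 3 without E9 replicate 2 and 2 without DMSO replicate 2.

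The receptor chain gene Ifngr1 rose with E9 by 1.00 (88.7 and 78 with epoxomicin, 180.2 and 185.6 with E9, 77.9 and 79.9 with DMSO), and the kinase gene Jak1 rose by 0.37. Jak2, the kinase bound to the other receptor chain, was the 1 that did the reverse with E9, where it fell by 1.12 on the log2 scale, with 441.4 and 411.4 with epoxomicin, 193.3 and 197 with E9, and 455.3 and 453.9 with DMSO. Irf1, a transcription factor needed for induction of Psmb9, had 1980 and 1888 with epoxomicin, 3390 and 3110 with E9, and 2264 and 2312 with DMSO, and rose with E9 by 0.50 (limma adjusted p = 0.00099). Against DMSO it had -0.24 with epoxomicin (limma adjusted p = 0.182). Its groups stood in the order of Psmb8 and Psmb9, as did those of other listed genes, Nlrc5, Tapbpl, Gbp2 and Igtp among them. A link of Irf1 to the members' values was not tested. Socs1, a feedback inhibitor of the pathway, rose by 0.36 and Irf2 by 0.31.

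Of 13 measured interferon-induced genes, 6 rose and 1 fell with E9 against DMSO (7.52% and 7.61% of all genes). The median of the 13 was 0.25. With epoxomicin 0 rose and 3 fell (0.71% and 0.547% of all genes), with a median of -0.26. The guanylate-binding protein gene Gbp2 rose with E9 by 0.69 and with epoxomicin fell by 0.64 on the log2 scale, with 2074 and 1907 with epoxomicin, 5240 and 4875 with E9, and 3010 and 3224 with DMSO. Igtp, an immunity-related GTPase gene, rose with E9 by 0.62 and Ifit3, which serves antiviral defence, by 1.34. Of the 6, Oasl2 was above the limit on the E9 arrays alone (60.1 and 63.4) and so was likewise tested only through that group, and 5 rose among genes above the limit on all 6 arrays. Gbp5 had log2 fold changes of -0.40 with epoxomicin and -0.61 with E9, and both passed, and Gbp3 had -0.54 with epoxomicin, which also passed. The 3 that fell with epoxomicin became 1 with the replicate block, 1 with the offset of 16 and 1 without epoxomicin replicate 1, and 0 without epoxomicin replicate 2, DMSO replicate 1 or DMSO replicate 2. In the short list of PA28 gamma partners and targets, 1 of 3 measured genes, Cdkn1a, rose with E9 (0.35, limma adjusted p = 0.00884), though not without DMSO replicate 1, and 0 passed with epoxomicin.

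**Figure D5:**
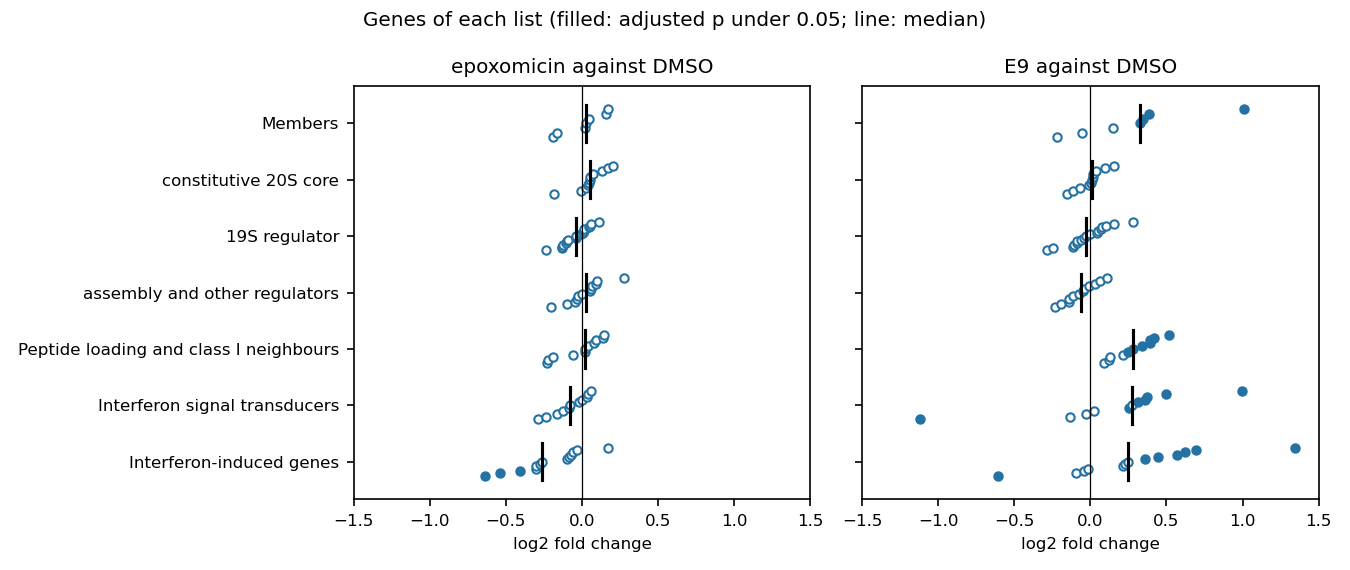
Log2 fold change (x axis) of the members and of the genes in 6 lists (rows) for epoxomicin against DMSO and E9 against DMSO. Each dot is a gene, filled if its adjusted p was under 0.05, and the vertical line is the median. With E9 the medians are 0.32 for the members and 0.25 to 0.28 for the presentation and interferon lists, and 0.011 or lower for the other proteasome lists.

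B cells and dendritic cells are rich in immunoproteasome, so markers of other cell types are given beside these results. The summed intensity of the 7 B cell markers with a probe was 310.6 to 336.6 with epoxomicin, 357.8 to 376.9 with E9 and 479.5 to 515.9 with DMSO. Of these 7, 2 fell with E9 and 4 with epoxomicin, and Ms4a1 and Pax5 stayed around the detection limit. The 2 that fell with E9 were Cd79b and H2-Ab1, and the other 5, Cd74 among them (96.7 and 88 with E9, 80.5 and 93.5 with DMSO), did not pass in that comparison. Of 10 myeloid and dendritic markers, 4 (Itgam, Fcgr3, Itgax and Clec9a) were not above the limit on any array, and the sum of all 10 was 409 to 430.6 with epoxomicin, 374 to 416.3 with E9 and 468 to 516.5 with DMSO. Batf3 was the 1 called gene of this list, with 123.4 and 140 with epoxomicin, 117.8 and 81.8 with E9, and 175 and 210.1 with DMSO, and with E9 it fell by 0.81 on the log2 scale (limma adjusted p = 0.00255). The sum of the 4 NK markers was 1098 to 1102 with epoxomicin, 2532 to 2901 with E9 and 842.6 to 887.8 with DMSO, most of it from Klrd1, which activated CD8+ T cells also make, while Ncr1 was not above the limit on any array. Of 2 markers of CD4 and regulatory T cells, Foxp3 fell with E9 and Cd4 stayed near the limit, and the 2 erythroid markers were not above the limit on any array. The part that the shift in B cell markers, in Batf3, in Klrd1, or in the CD8+ T cell markers, has in the members' values was not tested.

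Genes whose pattern was most like that of a member were found by the root mean square distance between log2 deviations from each gene's own mean over the 6 arrays, among 11929 genes with proper names. For Psmb8 the nearest were the kinase gene Stk24 (0.042), the membrane skeleton gene Add1 (0.048) and Nfe2l2 (0.048), which encodes the oxidative stress factor NRF2. For Psmb9 they were the aldehyde reductase gene Akr1a1 (0.045), Stk24 (0.046) and Tmem43 (0.047), so Stk24 stood near both. For Psmb10 they were Gpr183 (0.049), a receptor for oxysterols, the channel gene Aqp9 (0.070) and the adaptor gene Dok2 (0.071). For Psme1 they were Cdipt (0.037), an enzyme of phosphatidylinositol synthesis, Parp12 (0.039) and Marchf2 (0.041). Gpr183 had 252 and 277.2 with epoxomicin, 574.4 and 476.4 with E9, and 244.4 and 248.7 with DMSO. Its wide gap of E9 from the other groups and the spread between its E9 arrays resembled those of the brighter Psmb10 probe. This likeness follows from the search, which used the same arrays, and the further Psmb10 probe lacked that spread. These are descriptions of 6 arrays, and the members themselves were left out of the search.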

How the data were processed

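Total RNA of 6 samples was labelled with streptavidin-Cy3 for Illumina bead arrays, per the labels' protocols. Samples were grouped by title. The deposited intensities are linear and are taken as quantile-normalized by the authors. An exact comparison of sorted values with those of the first array matched that array alone, so it does not show this. Background handling and scanner software are not given in the sources used here. The 6 value columns of a further, non-normalized table match no sample label and were left out. Protein sequences of the subunits were not analysed here. A total change in RNA cannot be seen after such normalization, and array number limits the precision.

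The detection limit of 34.5 was the mode of the intensities (30.7) plus 1.645 times the SD below it (2.34). Intensities were corrected with normexp (offset 50) and log2-transformed. Of 45281 probes, 35784 had 1 gene symbol, 0 several and 9497 none; 31257 were named through RefSeq and 4527 kept the annotation symbol. Probes above the limit on at least 2 arrays were kept (20349), with the probe of highest mean log2 value for each of 13524 genes, 4521 of which had further probes. limma (lmFit and eBayes, with 3 residual and 6.32 prior degrees of freedom, median SE 0.0722) was fitted to all 6 arrays in 1 model of 3 groups, and Benjamini-Hochberg adjustment covered all genes within a comparison. The p-values measure the spread between these arrays, which may in part be technical.

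Named were all members with their probes, the counterparts Psmb5, Psmb6 and Psmb7, per list at most 6 called genes with the largest change against DMSO (or 2 with the smallest p where none was called), and the 3 genes of most similar pattern for each called member. Tap1 and Tap2, Psme2b, Ifng and the markers were named beside this rule. The members, the 7 lists and the markers were chosen with earlier results of these data known. Settings were varied one at a time (given below), and the procedure was tested on simulated data. Software was R 4.3.3, limma 3.58.1, Python 3.11.15 and matplotlib 3.10.9.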

Additional observations from a re-analysis of the deposited data

How the results depend on the processing

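No paired analysis rests on the design, since replicate numbers are not tied to animals or days; deviations of same-numbered arrays correlated with r of -0.20 between epoxomicin and E9, 0.21 between epoxomicin and DMSO and -0.32 between E9 and DMSO. With the replicate number as a block, 91 genes in place of 170 passed for epoxomicin against DMSO, and no call of a member or counterpart changed. With a log2 fold change of at least 0.5 required as well, 70 genes passed for epoxomicin against DMSO, 704 for E9 against DMSO and 599 for epoxomicin against E9, and for E9 against DMSO 1 member (Psmb10) and 2 member probes. With the offset of 16, 2 members passed for E9 against DMSO, and with the mean of a gene's probes 5 passed for epoxomicin against E9. Leaving out each array in turn gave 1 to 233 genes for epoxomicin against DMSO, 1207 to 1816 for E9 against DMSO and 922 to 1583 for epoxomicin against E9; the 1 was without epoxomicin replicate 2, and 27, 8 and 9 passed without epoxomicin replicate 1, DMSO replicate 1 and DMSO replicate 2. The members called were then 0 to 0, 2 to 4 and 3 to 4, and member probes 0 to 0, 5 to 7 and 5 to 6; the 2 members were without E9 replicate 2. In those fits the spread of the remaining single array was taken from the other groups.

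Signs turned for 9 values with 1 array left out, all of results that had not passed: Psme4 to -0.027 (without epoxomicin replicate 1) and -0.024 (without DMSO replicate 1), Psme2 to -0.089 and Psmb7 to -0.0045 (both without DMSO replicate 1) for epoxomicin against DMSO, and Psme3 to 0.099 (without E9 replicate 1) and 0.020 (without DMSO replicate 1), Psmb7 to 0.0074 (without E9 replicate 1) and Psmb6 to -0.017 (without E9 replicate 2) and -0.045 (without DMSO replicate 2) for E9 against DMSO. Over these fits the values ranged from -0.027 to 0.071 for Psme4, from -0.089 to 0.15 for Psme2 and from -0.0045 to 0.14 for Psmb7 (epoxomicin against DMSO), and from -0.22 to 0.099 for Psme3, from -0.32 to 0.0074 for Psmb7 and from -0.045 to 0.067 for Psmb6 (E9 against DMSO). No sign turned under the other settings: the block, the compared groups alone, no background correction, the offset of 16, no filter, a filter on all 6 arrays, the mean of probes, eBayes with trend and robust settings, a second quantile normalization and the fold threshold. Fits of the compared groups alone, without background correction, with either other filter, with trend and robust settings or with a second normalization left the number of members called as it was. The causes were not tested.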
